A study of Mus musculus with 5 samples.

Results

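The regions described here were the Runx3 peaks of IL-2-activated splenic NKC (natural killer cells) that lay at a distance from transcription start sites (TSSs) and were centred on chromatin marked by H3K4me1. A Runx3 peak was included when its centre was 1000 to 50000 bp from the closest transcript TSS of the GENCODE M1 annotation and fell within an H3K4me1 interval. Of 11676 Runx3 peaks, 7321 met the distance condition and 2631 of those, 22.5% of all, met both. The members were thus chosen by the measured positions of Runx3 peaks and of H3K4me1 intervals, so distance and H3K4me1 position are given below only as a description of the members.

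The cells were splenic NKC of ICR mice, obtained by negative selection and, according to the paper, by sorting for the surface antigen DX5. These cells were cultured for 7 days with 1000 units/ml of human recombinant IL-2 and fixed. Nearly all cells were NKp46+ at the end of culture according to the paper, and their chromatin was sonicated. Runx3 was immunoprecipitated in 2 libraries with a polyclonal serum made in the laboratory, H3K4me1 in 1 library with a monoclonal antibody, and non-immune serum (NIS) was used in 2 control libraries. All cells carried the same treatment, so no untreated or Runx3-deficient chromatin enters these values. The deposited Runx3 list is pooled over its 2 libraries, and the H3K4me1 list rests on 1 library by the labels. Both lists hold positions alone, with no height or p-value, so the depth behind each peak cannot be read from them. No value below has a replicate error. Intervals given with shares are 95% Wilson intervals and cover counting error only. Peaks are not replicates of the cells, and the p-values below describe these lists. All 9 NK marker genes examined had a Runx3 peak in the gene or within 5000 bp of it. Of these 9, 8 had an H3K4me1 interval, the exception being Ncr1, which encodes NKp46. For B cell markers, 3 of 7 genes had a Runx3 peak and 4 of 7 an H3K4me1 interval. Those counts were 4 and 6 of 8 for T cell markers, and 2 and 4 of 7 for myeloid markers. The share over all genes is not given for this rule, so these counts do not identify the cell type.

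Runx3 is a Runt-domain transcription factor that pairs with Cbfb and binds the core sequence TGTGGT or close variants of it. In lymphocytes it takes part in the development and function of NKC and cytotoxic T cells. Monomethylation of histone H3 at lysine 4 (H3K4me1) is laid down over enhancers, where the DNA bound by transcription factors commonly sits between marked nucleosomes. ETS and AP-1 proteins are transcription factors that often bind lymphocyte enhancers together with RUNX proteins.

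The following 9 sequences are examples chosen for paired motifs at genes of NKC, and they do not stand for all members. Each is the 200 bp around the peak centre, mm9, plus strand, for the gene with the most members in each of 9 gene lists, taken at the member closest to the TSS that held a RUNX motif within 50 bp of an ETS or AP-1 motif. Capitals mark the RUNX, ETS and AP-1 motifs on either strand. The RUNX motif is TGTGGT, with the variants TGTGGC and TGCGGT and TGCGGC. The ETS motif is AGGAAG, with the variants AGGAAA and CGGAAG and CGGAAA. The AP-1 motif is TGAGTCA or TGACTCA. On the minus strand the RUNX motif reads ACCACA or GCCACA in these windows. In order, the genes encode an NK receptor of the SLAM family, the receptor of interleukin 21, a Janus kinase, the integrin chain CD103, Runx1, the transcription factor Irf8, the ETS factor Fli1, the AP-1 factor Batf3 and a TNF receptor. The windows are chr1:173484061-173484260 between genes and 5163 bp upstream of the Cd244 TSS, chr7:132750967-132751166 in an intron of Il21r, chr4:100931603-100931802 in an intron of Jak1, chr11:72909062-72909261 in an intron of Itgae, chr16:92852570-92852769 between genes and 26359 bp upstream of Runx1, chr8:123249928-123250127 located 10230 bp upstream of Irf8 in an intron of the annotated gene Gm20388, chr9:32311749-32311948 in an intron of Fli1, chr1:192948145-192948344 between genes and 25952 bp downstream of the Batf3 TSS, and chr4:144839940-144840139 between genes and 3267 bp upstream of Tnfrsf1b.
Cd244: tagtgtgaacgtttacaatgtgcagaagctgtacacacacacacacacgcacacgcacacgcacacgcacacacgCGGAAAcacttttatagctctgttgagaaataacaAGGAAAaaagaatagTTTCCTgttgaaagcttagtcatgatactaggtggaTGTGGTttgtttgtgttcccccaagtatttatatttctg
Il21r: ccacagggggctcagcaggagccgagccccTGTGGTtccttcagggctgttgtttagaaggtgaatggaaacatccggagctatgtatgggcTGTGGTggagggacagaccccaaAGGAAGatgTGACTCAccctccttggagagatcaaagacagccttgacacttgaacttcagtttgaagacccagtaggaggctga
Jak1: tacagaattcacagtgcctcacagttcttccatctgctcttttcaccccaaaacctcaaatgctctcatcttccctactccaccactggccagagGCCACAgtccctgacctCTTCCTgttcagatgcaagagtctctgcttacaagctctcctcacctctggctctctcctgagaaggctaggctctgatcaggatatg
Itgae: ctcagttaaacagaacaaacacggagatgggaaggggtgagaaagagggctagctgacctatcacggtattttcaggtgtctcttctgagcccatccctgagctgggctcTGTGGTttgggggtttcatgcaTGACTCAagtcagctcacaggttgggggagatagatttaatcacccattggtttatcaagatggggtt
Runx1: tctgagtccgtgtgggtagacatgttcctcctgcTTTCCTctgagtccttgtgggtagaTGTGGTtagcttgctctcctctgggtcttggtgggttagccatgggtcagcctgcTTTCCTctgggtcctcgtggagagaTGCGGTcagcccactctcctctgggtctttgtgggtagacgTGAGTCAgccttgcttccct
Irf8: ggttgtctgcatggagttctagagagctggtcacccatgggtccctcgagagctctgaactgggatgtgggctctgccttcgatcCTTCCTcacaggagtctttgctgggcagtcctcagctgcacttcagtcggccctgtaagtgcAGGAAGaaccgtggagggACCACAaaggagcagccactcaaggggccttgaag
Fli1: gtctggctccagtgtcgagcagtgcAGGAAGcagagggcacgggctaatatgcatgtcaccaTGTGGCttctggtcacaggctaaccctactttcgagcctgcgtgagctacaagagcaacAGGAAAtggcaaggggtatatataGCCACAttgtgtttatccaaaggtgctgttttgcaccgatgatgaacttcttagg
Batf3: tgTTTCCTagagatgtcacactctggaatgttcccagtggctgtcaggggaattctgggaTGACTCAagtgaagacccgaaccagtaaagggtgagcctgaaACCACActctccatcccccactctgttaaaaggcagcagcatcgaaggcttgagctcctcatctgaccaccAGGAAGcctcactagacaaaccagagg
Tnfrsf1b: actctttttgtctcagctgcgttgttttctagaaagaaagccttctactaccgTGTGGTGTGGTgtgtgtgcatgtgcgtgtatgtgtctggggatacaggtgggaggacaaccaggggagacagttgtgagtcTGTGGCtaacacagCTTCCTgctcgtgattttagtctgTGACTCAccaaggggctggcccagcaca
The Il21r window held 2 RUNX motifs, 1 ETS motif and 1 AP-1 motif, and the Tnfrsf1b window held 3 RUNX motifs, 2 of which overlapped each other. The Fli1 window paired 2 RUNX motifs of the variant TGTGGC with 2 ETS motifs. In the Runx1 window the variants TGTGGT and TGCGGT both occurred, each on the 3′ side of an ETS motif of the minus strand.

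The members were centred in H3K4me1 intervals, and most were not wholly within the interval. The median width of the members was 717 bp, with quartiles of 610 and 836 bp and a range of 261 to 6046 bp. The median distance to a TSS was 10021 bp, with quartiles of 4474 and 20278 bp. Of Runx3 peaks within 1000 bp of a TSS, 9.76% were centred in an H3K4me1 interval. That share was 36.7% both at 1000 to 5000 bp and at 5000 to 20000 bp, 33.9% from there to 50000 bp, and 26.7% beyond. At the limits of the rule, the members closest to a TSS were centred at 1008 and 1018 bp and the first peaks left out at 997 and 989 bp. At the far limit the last members lay at 49614 and 49519 bp and the next peaks at 50078 and 50082 bp. At the edges of H3K4me1, 404 members were centred within 50 bp inside an edge and 383 other peaks within 50 bp outside one.

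H3K4me1 intervals that held a member were wide. Their median was 1034 bp over members, against 673 bp for the 31607 intervals without one. Interval width enters the rule, since a wider interval has more positions for a centre, and it is given as a description. In all, 2597 of 34204 intervals (7.59%) held a member, of which 2564 held 1 member, 32 held 2 and 1 held 3. Centres lay a median of 226 bp from the closer edge, and they were spread evenly through the interval, with 31.9%, 34.1% and 34.0% of them in 3 equal parts from left to right. Of the members, 890 (33.8%) lay wholly within their interval, 1552 (59.0%) ran past it on one side and 189 (7.18%) covered it. Intervals came in groups, since 59.4% of members were in an interval with another one within 1000 bp. Chromosome X held 1 member, and the share of all Runx3 peaks or H3K4me1 intervals on it is not given here.

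Among the intervals with more than 1 member was one in an intron of Smad3, which encodes a mediator of TGF-beta signals. This interval, chr9:63563202-63571738, was 8537 bp wide and held 2 members, centred 4336 and 10604 bp upstream of a Smad3 TSS. The central 200 bp of these members held 2 and 0 RUNX motifs, so RUNX motifs at the centre differed between members that shared an interval.

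Members were compared with the other Runx3 peaks of the same distance range, using sequence and gene structure. The rule did not use sequence, and of gene structure it used TSS distance alone. The comparison peaks were 2702 peaks centred outside H3K4me1 with an interval within 2000 bp, called neighbouring peaks here, and 1988 peaks with no interval within 2000 bp, called unmarked peaks. Neighbouring peaks were not free of the mark, since 1734 of them overlapped an interval by at least 1 bp. Median widths were 707 bp in neighbouring and 627 bp in unmarked peaks. Median distances to a TSS were 10518.5 and 11586.5 bp. Two-sided Fisher's exact tests were used for the shares, adjusted by Benjamini-Hochberg over all motifs, motif pairs and both comparisons.

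The RUNX motif was found in the central 200 bp of 2083 members, 79.2% (77.6 to 80.7%). Windows of the same length 10000 bp to either side of the members, not overlapping Runx3 peaks, held it in 31.1% of 5124 cases, and the centres of all 11676 Runx3 peaks in 77.0%. Over the whole peak it was present in 97.1% of members. In the plot of motif position the RUNX motif rose from 3.91% of members in the 20-bp bin 990 bp before the centre to 17.0% in the bin just after it. Where a RUNX motif was present in the central window, the closest one lay a median of 28 bp from the centre, and 46.5% of such members had one within 25 bp. The central window held 1 RUNX motif in 36.7% of members, 2 in 26.6%, 3 in 11.1%, 4 or more in 4.75% and none in 20.8%.

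**Figure D1:**
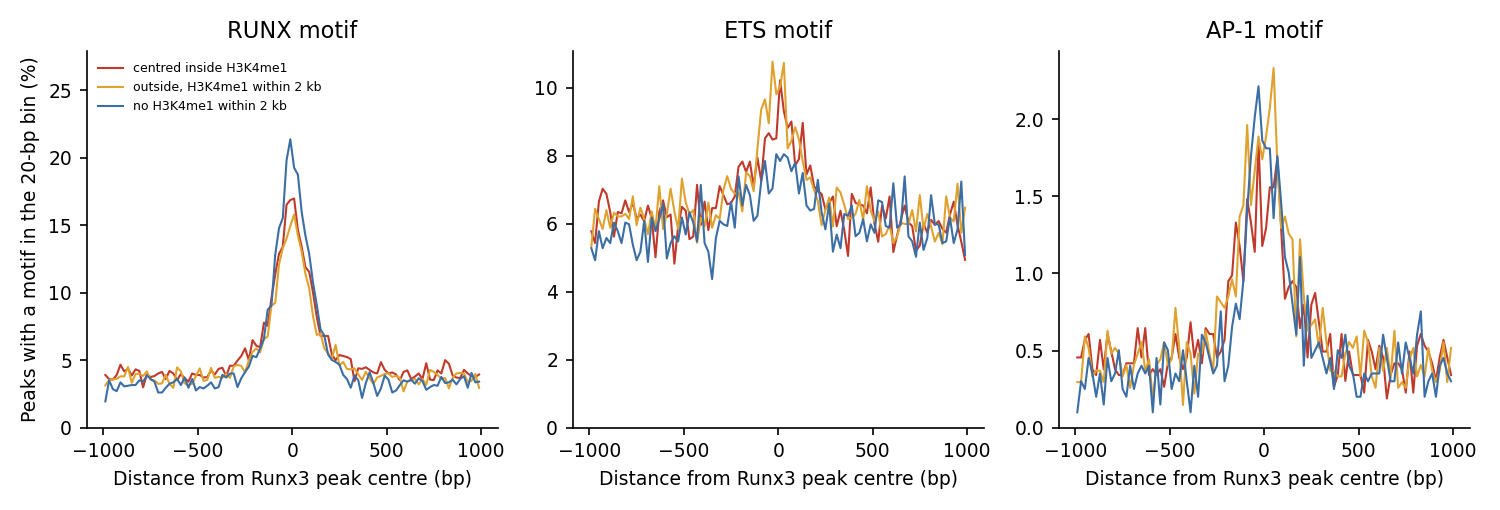
Share of Runx3 peaks with a motif in each 20-bp bin (y axis, %) against distance from the peak centre in bp (x axis) for the RUNX, ETS and AP-1 motifs, in 2631 peaks centred inside H3K4me1 (red), 2702 neighbouring peaks (yellow) and 1988 unmarked peaks (blue). All 3 motifs were concentrated at the centre; the RUNX curve of unmarked peaks reached 21.4% in a central bin and that of members 17.0%, and y axes differ between panels.

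Members carried fewer RUNX motifs at their centres than unmarked peaks. The share was 79.2% against 83.9% (82.2 to 85.4%), an odds ratio of 0.732 (adjusted p = 0.00033, Fisher's exact test). The variant TGTGGT differed in the same direction, at 59.8% of members and 66.7% of unmarked peaks (odds ratio 0.743, adjusted exact p = 2.24e-05), while TGTGGC was higher in members, at 35.2% against 31.8% (odds ratio 1.16, adjusted p = 0.0359). Against neighbouring peaks, with 77.2%, the difference in the RUNX motif did not pass (odds ratio 1.12, adjusted exact p = 0.156), and TGTGGC was again higher in members (31.6% in neighbouring peaks, odds ratio 1.18, adjusted p = 0.0125). Peak width moved with the RUNX share. In members it was 84.8% for peaks of 500 to under 750 bp and 51.9% for the 347 peaks of at least 1000 bp, although 99.4% of the latter held a RUNX motif somewhere in the peak. Peaks of at least 1000 bp made up 13.2% of members and 4.28% of unmarked peaks. Among peaks of 500 to under 750 bp alone the shares were 84.8% in 1376 members and 85.9% in 1196 unmarked peaks (odds ratio 0.919, adjusted exact p = 0.648), and over the whole peak the direction turned, to 97.1% against 96.1% (odds ratio 1.34, adjusted p = 0.135). TGTGGT changed in the same way, with odds ratios of 0.945 in the width class and 1.17 over the whole peak, neither past the threshold. The TGTGGC differences did not pass once GC content and TSS distance were in a logistic model (odds ratios 1.05 in both comparisons).

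**Figure D2:**
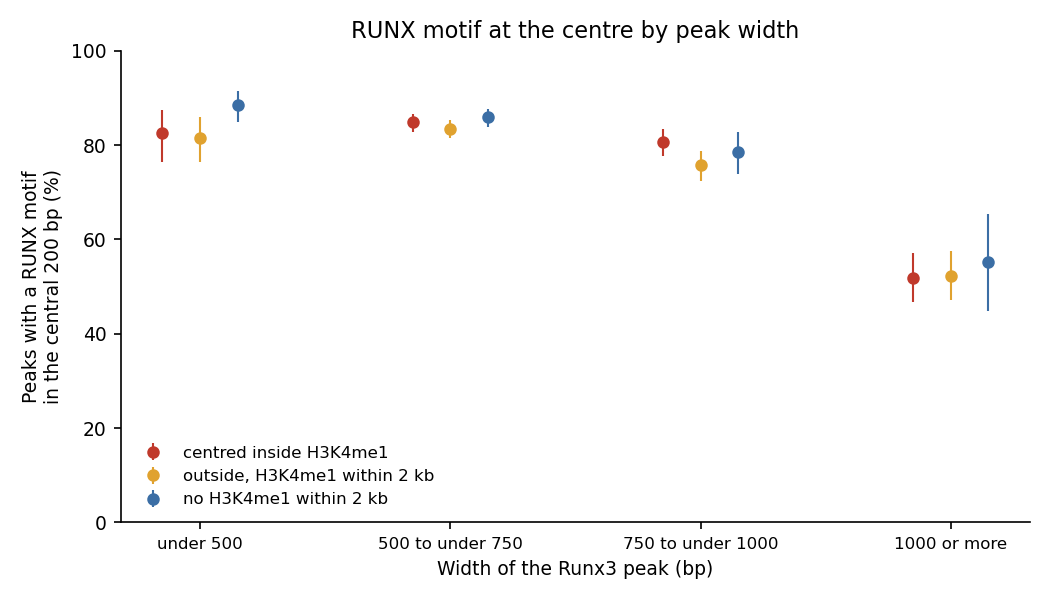
Share of Runx3 peaks with a RUNX motif in the central 200 bp (y axis, %) by width of the peak in bp (x axis), with 95% Wilson intervals as bars, for members (red), neighbouring peaks (yellow) and unmarked peaks (blue). In each class the share was lowest in peaks of at least 1000 bp, at 51.9%, 52.3% and 55.3%.

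The ETS motif was more frequent in members than in unmarked peaks. It was present at 58.2% of member centres (56.3 to 60.1%) and 50.9% of unmarked centres (48.7 to 53.1%), an odds ratio of 1.34 (adjusted p = 1.47e-05, Fisher's exact test). The flanking windows held it in 42.3%. The difference passed in peaks of 500 to under 750 bp, at 60.2% against 53.6% (odds ratio 1.31, adjusted exact p = 0.0128), and over the whole peak, at 92.7% against 85.7%. Whole-peak shares cover unlike lengths, since median widths were 717 bp in members and 627 bp in unmarked peaks. Neighbouring peaks had an ETS share of 62.1%, above that of members (odds ratio 0.851, adjusted exact p = 0.0119). That second difference did not pass in peaks of 500 to under 750 bp (odds ratio 0.895, adjusted exact p = 0.457), and it turned over the whole peak, to 92.7% against 91.8% (odds ratio 1.13). An ETS motif within 50 bp of a RUNX motif was found in 34.2% of members, 30.2% of unmarked peaks (odds ratio 1.20, adjusted exact p = 0.0119) and 36.3% of neighbouring peaks (adjusted p = 0.17). The member against unmarked difference of this pair did not pass in the central 100 bp (odds ratio 1.17) or with GC content in the model (odds ratio 1.16).

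AP-1 motifs were rarer in members. They were found at 13.3% of member centres, against 15.7% in unmarked peaks (odds ratio 0.822, adjusted exact p = 0.0438) and 16.0% in neighbouring peaks (odds ratio 0.804, adjusted p = 0.0126), while 3.79% of flanking windows held one. Within members the share was 16.9% (14.3 to 19.8%) when the centre was under 100 bp from an edge of H3K4me1 and 11.7%, 11.6% and 12.4% in the 3 classes further in. Neither difference passed in peaks of 500 to under 750 bp (adjusted exact p = 0.54 and 0.184), and over the whole peak the comparison with unmarked peaks turned (odds ratio 1.17, adjusted p = 0.0371). An AP-1 motif within 50 bp of a RUNX motif occurred in 7.60% of members and 9.61% of unmarked peaks (odds ratio 0.774, adjusted exact p = 0.0359), and this difference did not pass in the width class (odds ratio 0.863) or over the whole peak (odds ratio 1.01).

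Paired RUNX motifs up to 50 bp apart were present in 30.6% of members, between the 36.3% of unmarked peaks (odds ratio 0.775, adjusted exact p = 0.00033) and the 26.7% of neighbouring peaks (odds ratio 1.21, adjusted p = 0.0065). Flanking windows held such a pair in 3.14%. In peaks of 500 to under 750 bp neither difference passed (odds ratios 0.879 and 1.17), and over the whole peak members had 51.8%, unmarked peaks 49.8% and neighbouring peaks 43.7%. In 185 members the closest pair was 0 to 5 bp apart, and in 144 of these (77.8%) both motifs pointed the same way. The most frequent arrangements were direct repeats with 1 bp between the motifs, in 41 members, and with 3 bp, in 36 members. The 3 words seen most often at the 1-bp gap, with the 2 motifs and the base between them, are printed next, with the base between them in lower case.
Direct repeat in 5 members: TGTGGTcTGTGGT
Direct repeat in 4 members: TGTGGTtTGTGGC
Direct repeat in 4 members: TGTGGTtTGTGGT
Unmarked peaks had 36 and 34 direct repeats with these gaps among 1988, and neighbouring peaks 18 and 20 among 2702. These spacings were counted without a test.

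The combination seen most often in member centres was RUNX with ETS and without AP-1, in 1071 members (40.7%). RUNX without either partner was found in 735 (27.9%), RUNX with AP-1 and without ETS in 126 (4.79%), and all 3 motifs in 151 (5.74%). ETS or AP-1 occurred without RUNX in 343 members (13.0%), and 205 (7.79%) held none of the 3. RUNX without a partner made up 34.6% of unmarked and 23.9% of neighbouring peaks.

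Other motifs separated members from one or both comparison classes. The E-box (CAGCTG or CAGGTG), bound by basic helix-loop-helix and ZEB factors, was found in 32.2% of members, 27.0% of unmarked peaks (odds ratio 1.29, adjusted exact p = 0.00058) and 25.8% of neighbouring peaks (odds ratio 1.37, adjusted p = 7.29e-06), with 25.8% in flanking windows. The GATA motif (AGATAA) was lower in members, at 5.51% against 7.80% (odds ratio 0.690, adjusted exact p = 0.00745) and 8.73% (odds ratio 0.609, adjusted p = 5.15e-05), and the flanking windows held it in 9.17%. The STAT motif (TTCNNNGAA) was lower in members than in neighbouring peaks, at 6.39% against 8.51% (odds ratio 0.733, adjusted exact p = 0.0114), as was the IRF motif, at 1.67% against 3.11% (odds ratio 0.530, adjusted p = 0.00285). GC content moved with these results, with medians of 52% in members, 49% in neighbouring and 48.5% in unmarked peaks. With GC content and TSS distance in a logistic model, the E-box difference from unmarked peaks (odds ratio 1.07), both GATA differences (odds ratios 0.973 and 0.781) and the STAT (odds ratio 0.860) and IRF (odds ratio 0.645) differences did not pass at an adjusted p of 0.05, while the E-box difference from neighbouring peaks did (odds ratio 1.18). The STAT direction also turned when intervals less than 1000 bp apart were joined (odds ratio 1.03). The T-box motif (AGGTGTGA) was found in 2.77% of members and 0.937% of flanking windows, and its differences from unmarked (3.17%) and neighbouring peaks (2.18%) did not pass. The same held for SP1 (GGGCGG), at 5.55% of members, NF-kappaB, at 2.74%, and CRE (TGACGTCA), at 0.418%. With GC content and TSS distance in the model, however, SP1 was lower in members than in neighbouring peaks (odds ratio 0.583). Over the whole peak, 10.9% of members held NF-kappaB and 16.7% held SP1, against 5.23% (odds ratio 2.23, adjusted exact p = 1.36e-11) and 10.3% (odds ratio 1.75, adjusted exact p = 1.63e-09) of the narrower unmarked peaks. Among all 11676 Runx3 peaks, SP1 was found in 14.2%, E-box in 27.1%, GATA in 6.60%, STAT in 6.69%, T-box in 2.30%, NF-kappaB in 2.68%, IRF in 2.19%, CRE in 0.899%, ETS in 58.8% and AP-1 in 12.6%. Motif matches were counted separately, and the letters of E-box and T-box motifs, or of CRE and AP-1 motifs, can share bases.

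**Figure D3:**
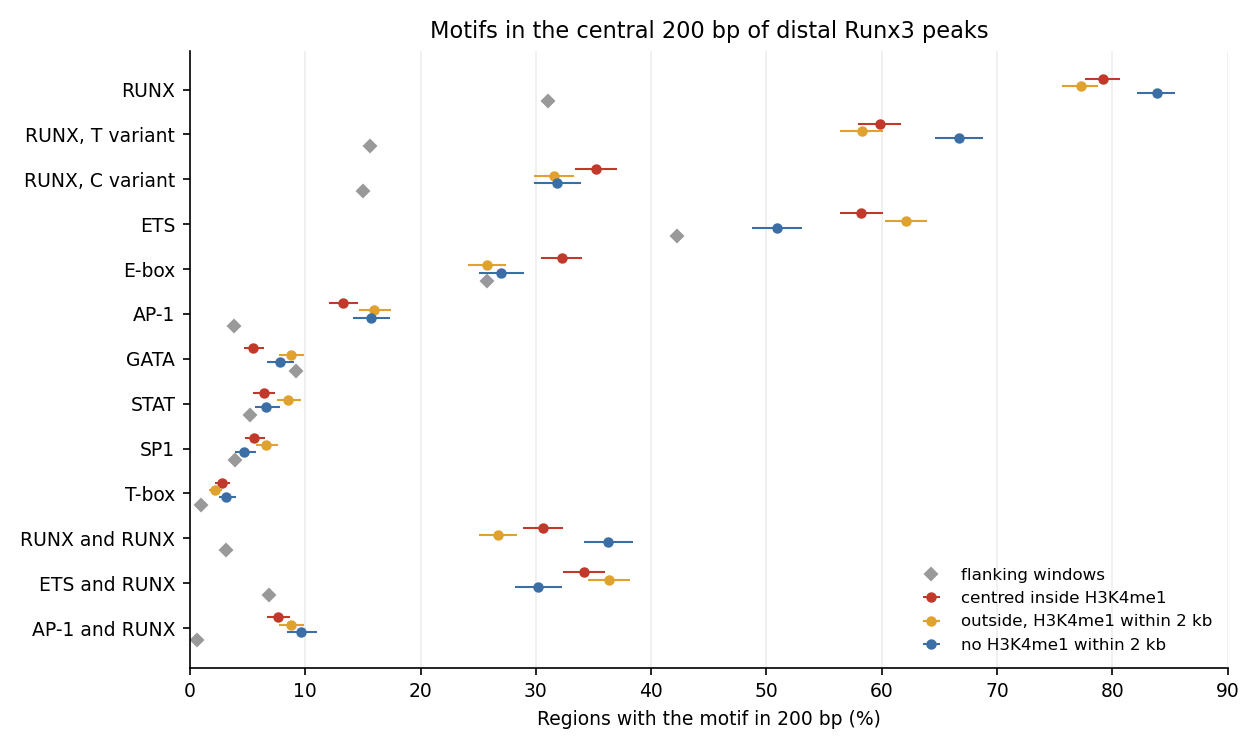
Share of regions with each motif in 200 bp (x axis, %) for members (red), neighbouring peaks (yellow), unmarked peaks (blue) and windows 10000 bp from members (grey diamonds), with 95% Wilson intervals as bars for the peak classes. Pairs are motifs up to 50 bp apart, the T and C variants are TGTGGT and TGTGGC, and in the ETS row members, at 58.2%, stood above unmarked peaks, at 50.9%, and below neighbouring peaks, at 62.1%.

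The search over every 6-mer, counted with its reverse complement, gave a difference of base composition. Of 2080 6-mers, 299 (14.4%) were in a higher share of members than of the neighbouring and unmarked peaks together and 349 (16.8%) in a lower share, at adjusted p under 0.05 by Fisher's exact test. At unadjusted p under 0.05 there were 839. The 5 higher with the smallest p were CCCAGG (26.5% of members and 17.5% of other peaks, adjusted exact p = 7.28e-16), CTGGGC (25.2% and 16.7%), CCAGCC (26.1% and 18.2%), CAGGGA (22.1% and 14.8%) and CCCAGC (26.1% and 18.8%). The 5 lower were TTAAAA (6.65% and 12.5%, adjusted exact p = 6.44e-13), AATAAA (5.85% and 11.0%), AAATAA (6.23% and 11.4%), TAAAAA (6.92% and 12.3%) and AAAAAA (6.50% and 11.6%). The higher 6-mers had a median of 4 G or C bases and the lower ones 1. The CG step was uncommon in both sets, in 9 of the higher and 21 of the lower 6-mers, while 604 of all 2080 contain it. In the central 100 bp, 153 were higher and 134 lower.

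Counted over all peaks of each class, members lay in introns more often than unmarked peaks did. The shares of genic position were not adjusted for TSS distance. The centre was in an intron in 56.7% of members (54.8 to 58.6%) and 49.2% of unmarked peaks (odds ratio 1.35, adjusted p = 1.68e-06, Fisher's exact test), and between genes in 37.9% and 46.8% (odds ratio 0.693, adjusted p = 8.07e-09). The differences from neighbouring peaks, with 57.0% in introns (adjusted exact p = 0.847) and 39.3% between genes (adjusted p = 0.327), did not pass. With intervals less than 1000 bp apart joined, the intron share of members was above that of neighbouring peaks (odds ratio 1.13). Exons held 5.47% of members, 3.97% of unmarked (odds ratio 1.40, adjusted exact p = 0.0277) and 3.70% of neighbouring peaks (odds ratio 1.51, adjusted p = 0.00408), and neither exon difference passed at 5000 to 50000 bp from a TSS or in peaks of 500 to under 750 bp. Another Runx3 peak lay within 5000 bp of 28.9% of members, 28.5% of neighbouring and 9.15% of unmarked peaks. The median distance to the next Runx3 peak was 12386 bp for members and 37661.5 bp for unmarked peaks.

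Members were given to the protein-coding gene whose TSS was closest, within 50000 bp. This placed 2444 members at 1811 of 22208 protein-coding genes, so that 8.15% of all genes had at least 1. Downstream positions were slightly more common, with 54.5% of members on the transcribed side of the TSS. Of these genes 1397 had 1 member, 282 had 2 and 132 had 3 or more. Over 13 lists of lymphocyte and transcription factor genes, 63 of 173 genes (36.4%) had a member and 28 had 2 or more. The same lists had a neighbouring peak at 94 genes (54.3%, against 8.60% of all genes) and an unmarked peak at 36 (20.8%, against 7.19% of all genes). None of 14 genes of non-blood tissues, such as those for albumin and insulin, had a member, although 1 did when every coding TSS within 50000 bp was counted. That looser rule gave 18.1% of all genes a member, and a rule of lying in the gene or within 5000 bp gave 6.97%. The 14 genes of non-blood tissues were too few for their count to be read against the share of all genes. These counts carry no test, and a gene close to a member is not shown to be its target.

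**Figure D4:**
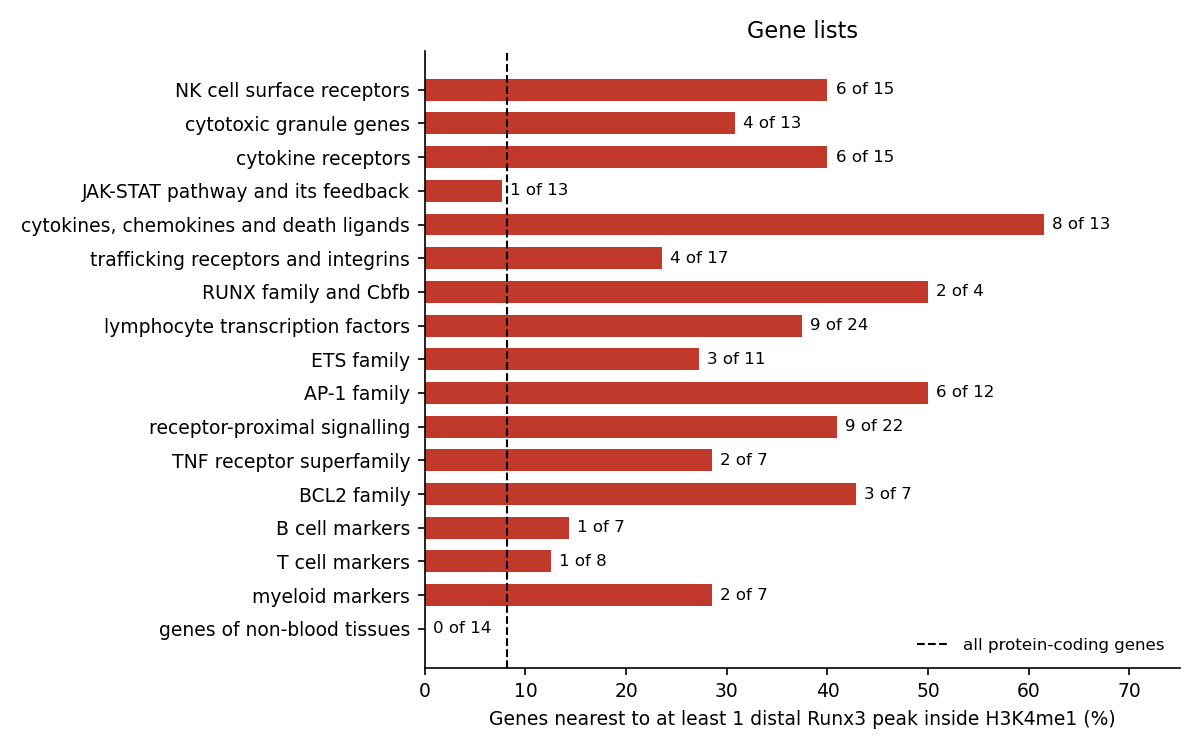
Share of the genes of each list that were closest to at least 1 member (bars, x axis in %), with the number of genes beside each bar and the 8.15% of all protein-coding genes as a dashed line. By this rule of the closest TSS, cytokines, chemokines and death ligands stood highest, with 8 of 13 genes, and the JAK-STAT list had 1 of 13. The order of lists changed under other gene rules.

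Of the secreted factors 8 of 13 had a member by the closest TSS, the highest share of the lists, with 16 members in all. By the rule of lying in the gene or within 5000 bp it was 5 of 13, below 3 of 4 in the RUNX family list and 5 of 7 in the BCL2 family. Ifng, which encodes interferon gamma, had members 5298 and 33190 bp upstream and 28223 bp downstream, all between genes. Their centres held 0, 3 and 2 RUNX motifs. Il10 encodes an inhibitory cytokine and had members 9178 bp upstream, 6207 and 29607 bp downstream, with ETS motifs in the first 2 of these alone. Ccl3, for a chemokine that attracts leukocytes, had 3 members 9020, 10127 and 19424 bp downstream. The others with a member were Csf2, Tnfsf10, Xcl1, Ccl4 and Ccl5, while Tnf, Lta, Ltb, Fasl and Tgfb1 had none. Of those without a member, Fasl had 4 neighbouring peaks and 1 unmarked peak, and Tnf had 1 neighbouring peak.

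Of 15 NK surface receptor genes, 6 had a member. Cd244 had one 5163 bp upstream, with 1 RUNX and 3 ETS motifs at its centre, and one in its own intron 3595 bp downstream with none of the 3 motifs. Tigit, an inhibitory receptor gene, had members 34934 and 38030 bp upstream. Klrc1, which encodes the lectin-like receptor NKG2A, had 1 member 1579 bp upstream, with 2 RUNX and 2 ETS motifs. Klrb1c, Klrg1 and Lag3 had 1 member each. Among 13 cytotoxic granule genes the 4 with a member were Srgn, Ctsw, Gzma and Gzmb. Srgn, the gene of the granule proteoglycan serglycin, had members 5573 and 16152 bp upstream. Ctsw, a cathepsin of cytotoxic cells, had 1 in its own intron 1254 bp downstream of the TSS. The Gzma member, 9768 bp downstream of the TSS of that granzyme gene, lay in an intron of Cdc20b and had no RUNX or ETS motif at its centre. Prf1, for the pore-forming protein perforin, had no member and 1 neighbouring peak.

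Cytokine receptors had a member at 6 of 15 genes. Il21r was the most densely occupied, with 4 members, centred 9909 bp upstream and 4059, 27053 and 32164 bp downstream, and each held at least 1 RUNX motif at its centre. Tgfbr2, the signalling receptor of TGF-beta, had a member 9853 bp upstream with 3 RUNX, 2 ETS and 1 AP-1 motif, and another in an intron 42433 bp downstream. Il12rb1, a subunit of the receptor of interleukin 12, had 1 member 1761 bp upstream, without a RUNX motif at the centre. Il18r1, Il10ra and Ifnar1 had 1 each. The IL-2 receptor genes Il2ra, Il2rb and Il2rg had no member, although Il2ra had 2 neighbouring peaks and Il2rb had 1. In the JAK-STAT list Jak1 alone had members, both in its introns, 6125 bp downstream of one TSS and 14413 bp upstream of another. The share of 1 in 13 was close to the 8.15% of all genes, although 6 of the 13 had a neighbouring peak. With every coding TSS within 50000 bp counted, 4 of the 13 had a member, against 18.1% of all genes.

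Among 17 trafficking receptors and integrins, 4 had a member. The 2 members of Itgae shared a single H3K4me1 interval of 2812 bp in its introns, centred 4093 and 5077 bp downstream of the TSS. The first of these held none of the 3 motifs and the second held RUNX and AP-1, as printed above. Cxcr4, a chemokine receptor gene, had members 22549 bp upstream and 22168 bp downstream. Itga2, which encodes the integrin CD49b of NKC, had 1 intronic member 15618 bp downstream. Cd44 was the fourth gene.

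**Figure D5:**
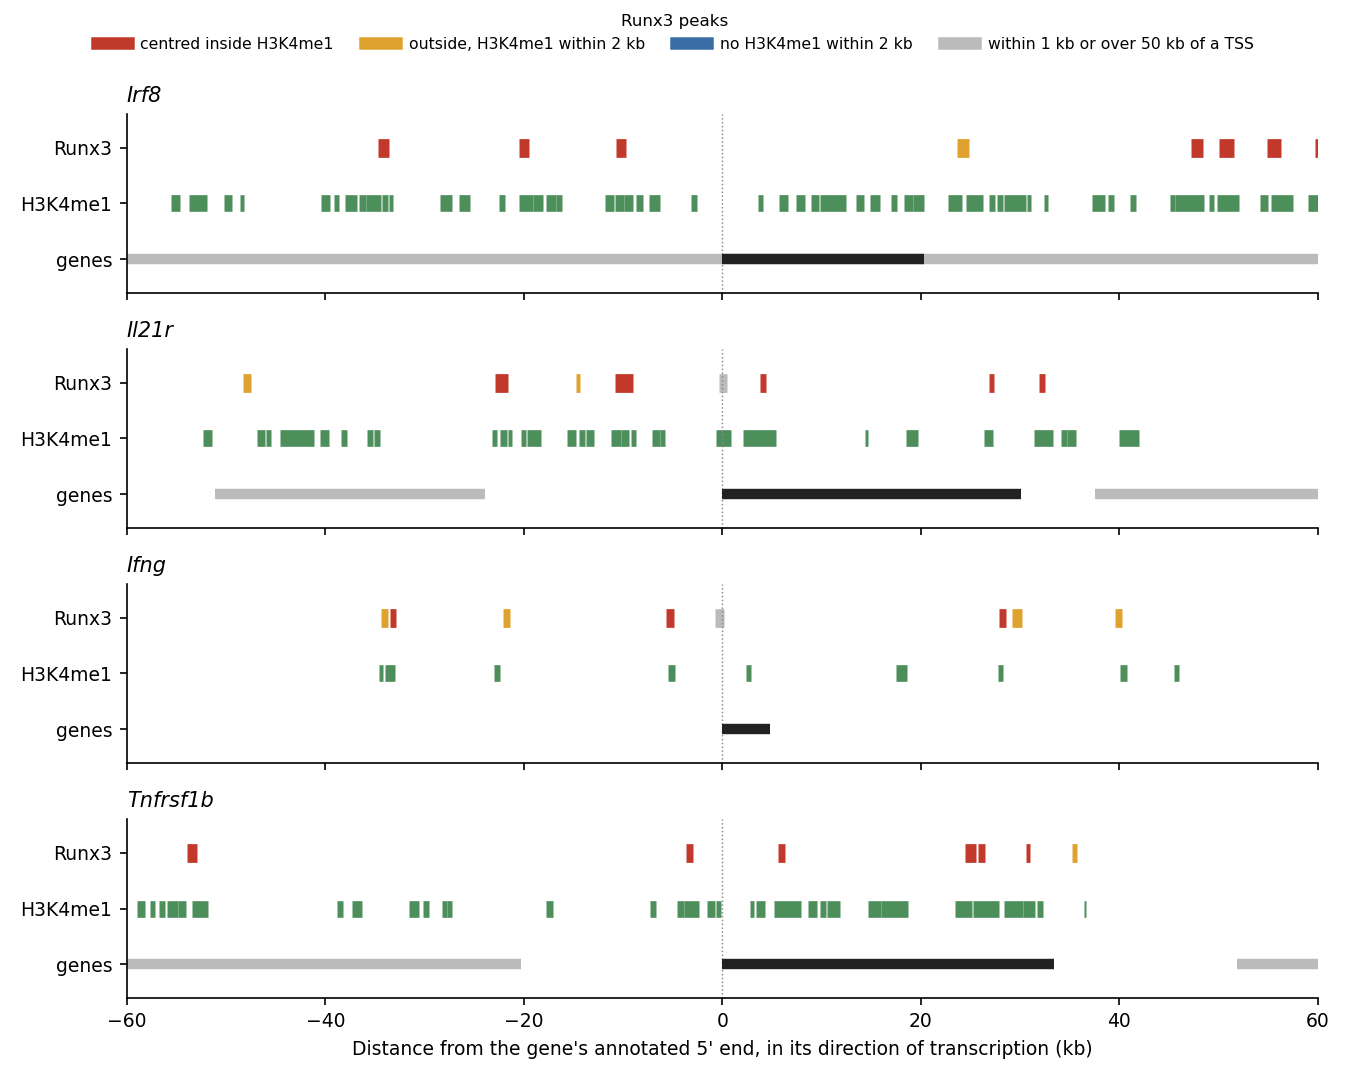
Runx3 peaks by class (top row of each panel), H3K4me1 intervals (middle) and protein-coding genes (bottom, the named gene in black and others in grey) within 60 kb of the annotated 5′ end of Irf8, Il21r, Ifng and Tnfrsf1b (x axis, kb, in the direction of transcription). Members made up 7 of 8 Runx3 peaks around Irf8, 5 of 8 around Il21r, 3 of 8 around Ifng and 6 of 7 around Tnfrsf1b, including members that were closest to another gene.

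Transcription factor genes included those with the most members. Runx1 had 6, of which 4 lay in its introns and 2 upstream between genes, at 26359 and 38444 bp. Of the 6, 5 held a RUNX motif at their centre. The Runx3 gene itself had 5 members, at 18298, 21979 and 43521 bp upstream and in introns 4650 and 14716 bp downstream, and all 5 held at least 1 RUNX motif at the centre. The member at 21979 bp was 2110 bp wide. Runx2 and Cbfb had none. Irf8, which encodes an interferon regulatory factor, had 8 members, 2 of them upstream, at 10230 and 19979 bp, and 6 of them 31959 to 49210 bp downstream of the closest TSS, past the end of the gene. All 8 fell in introns of the annotated gene Gm20388, which spans Irf8, and 5 of the 8 held a RUNX motif at their centre. Tcf7, a lymphocyte factor of the HMG-box family, had 3 members, 16723 and 35670 bp upstream and 21089 bp downstream, with a RUNX motif at the centre of the first. Tox2 had 2 intronic members at 3893 and 27948 bp. Of the 24 lymphocyte factors 9 had a member. Tbx21, which encodes T-bet, was one, with 1 member upstream, and Eomes was not.

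ETS genes had a member at 3 of 11. The 3 Fli1 members were clustered in its introns 37125, 38058 and 40313 bp downstream of the TSS. Ets1 had 1 member 20088 bp upstream and Erg 1 intronic member 36495 bp downstream, each with 1 RUNX and 1 ETS motif. AP-1 genes had a member at 6 of 12. Batf3 had members 1072 and 3095 bp upstream and 25952 bp downstream. Junb had a member 2555 bp upstream with 4 RUNX motifs and 1 AP-1 motif at its centre, and another 4038 bp upstream with 2 ETS motifs and no RUNX motif. Fosb had 1 member 6657 bp upstream, with 4 RUNX, 1 ETS and 1 AP-1 motif. Jun and Jund had none.

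Receptor-proximal signalling genes had a member at 9 of 22. Plcg1, for a phospholipase of receptor signalling, had members 1069 and 2103 bp downstream that shared an H3K4me1 interval of 2366 bp. Lcp2, which encodes the adaptor SLP-76, had 2 members, at 12548 and 13967 bp from a TSS, each with a RUNX and at least 1 ETS motif. Pik3cd, a lymphocyte phosphoinositide kinase, had 1 exonic member 4862 bp downstream. In the TNF receptor superfamily, 2 of 7 genes had a member. Tnfrsf1b had 3, 3267 bp upstream and 5992 and 24984 bp downstream, with 3, 1 and 0 RUNX motifs. Cd27 had 1, located 4737 bp upstream in an exon of Vamp1. In the BCL2 family 3 of 7 had a member. The survival gene Mcl1 had members 13182 bp upstream and 5423 bp downstream, the death-promoting gene Bcl2l11 had 2 in an intron at 24695 and 28331 bp, and Bid had 1.

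Markers of other blood cells also had members, at 1 of 7 B cell, 1 of 8 T cell and 2 of 7 myeloid genes, too few genes for a share to be read against 8.15%. These were Blk, a kinase of B cells, with 1 member in its intron 39713 bp downstream, Cd3e, with 1 member 11224 bp downstream, Csf1r, the receptor of a macrophage growth factor, with members 14341 bp upstream and 13697 bp downstream, and Itgam, an integrin gene that NKC also express, with 1 member 11633 bp upstream. With every coding TSS within 50000 bp counted, 18.1% of all genes had a member. For these lists it was 2 of 7 B cell, 5 of 8 T cell and 4 of 7 myeloid genes. Some lists above were as short, and the same limit holds for their shares. The content of other cells in the cultures was not tested here.

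Over all genes, those with the most members included Prex1 with 10, Ksr1 and Irf8 with 8 each, Smad3, Irak2, 4933407C03Rik and Sik1 with 7 each, and Chd7 and Runx1 with 6 each. Prex1 encodes an exchange factor for Rac, Ksr1 a scaffold of the MAP kinase cascade, Irak2 a kinase of interleukin-1 and Toll-like receptor signalling, Sik1 a salt-inducible kinase and Chd7 a chromatin remodeller. In Prex1, 9 of 10 members were in its introns. The 7 members of Smad3 were all intronic and ranged from 2565 to 14772 bp from a Smad3 TSS. The 7 members of Sik1 were all between genes, 5 of them 15093 to 28876 bp downstream and 2 of them 17524 and 41886 bp upstream. Of all genes 17 had 5 or more members.

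The widest members were picked after their values were seen. A region of 6046 bp at chr17:39979840-39985885 covered an H3K4me1 interval of 5971 bp, held 22 RUNX motifs and lay 362691 bp from the TSS of the closest protein-coding gene, Pgk2. The next were a region of 2239 bp located 4308 bp from Zfp36, which encodes an mRNA-binding protein, with 14 RUNX motifs, and the Runx3 region of 2110 bp named above, also with 14. The first stood apart in width from all others, and its H3K4me1 interval was nearly as wide. Repeats were not analysed, so whether repeated sequence bears on this region was not tested.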

How the data were processed

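Peaks of Runx3 and H3K4me1 in IL-2-activated splenic NKC were taken as deposited by the authors, who had placed 40-bp reads on mm9 by ELAND. Reads with a single alignment were kept and those of the libraries of one antibody were joined. MACS called peaks relative to NIS after scaling down the larger of the read sets. Values in the deposited lists are positions in bp and carry no score or depth. Starts are printed counted from 1. No column was left unassigned.

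The GENCODE M1 annotation and its genome sequence, of the build named above, gave genes, TSSs and bases, and all peaks lay within its chromosome lengths. Motifs were searched on both strands of the central 200 bp. Genes named are the 3 with the most members in each list (ties by the closest member), the 10 with the most members overall and the 3 intervals with the most members, and 6-mers the 5 with the smallest p in each direction. One item that this rule names is not reported here. Members and lists were chosen with earlier results of these data known. Of 211 list genes, 209 matched the annotation. Alternatives were the whole peak or central 100 bp, overlap of 1 bp, joined intervals, protein-coding TSSs, a limit of 5000 bp for TSS distance or for unmarked peaks, a logistic model with GC content and log10 TSS distance, 2 other gene rules and, added after the data had been seen, peaks of 500 to under 750 bp. Repeats were not analysed here, since the genome sequence used does not mark them. The steps were tested on simulated data. Software was scipy 1.17.1 and statsmodels 0.14.6 for tests, pysam 0.24.0 for sequence, and numpy 2.4.6, matplotlib 3.10.9 and python 3.11.15.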

Additional observations from a re-analysis of the deposited data

How the results depend on the processing

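The peak lists give no summit, height or value per library, and no result was repeated in separate libraries. The depth cannot be read from the lists. No paired analysis was possible, because the Runx3 list is pooled over its 2 libraries and the labels give 1 library for H3K4me1. The planned search without repeat-masked bases and the share of repeats were not run, because the genome sequence used is not masked. All values below are odds ratios of members against unmarked or neighbouring peaks unless stated, the causes of the changes were not tested, and all other main comparisons of motifs and introns kept their direction and their side of the threshold under the alternatives run, apart from those named here.

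Over the whole peak, directions against unmarked peaks turned for RUNX (1.34), TGTGGT (1.17), TGCGGC (1.35), TGCGGT (1.03), STAT (1.01), AP-1 (1.17), T-box (1.45), RUNX pairs (1.08) and AP-1 with RUNX (1.01), as did ETS (1.13), ETS with RUNX (1.05), TGCGGT (1.04), TGCGGC (1.08), NF-kappaB (1.13) and SP1 (1.01) against neighbouring peaks, and RUNX against neighbouring peaks came to pass (1.46). With joined intervals the direction turned for STAT (1.03), introns (1.13), AP-1 with RUNX (1.02) and NF-kappaB (1.01) against neighbouring peaks and for STAT (1.15) against unmarked peaks, and these no longer passed against unmarked peaks: AP-1 (0.884) and AP-1 with RUNX (0.847). The same setting ended the calls against neighbouring peaks of ETS (0.964), AP-1 (0.890) and RUNX pairs (1.13). In the central 100 bp calls were lost against unmarked peaks for AP-1 (0.802), ETS with RUNX (1.17) and AP-1 with RUNX (0.843), and against neighbouring peaks for RUNX pairs (1.20). Directions turned there for SP1 (0.872) and CRE (0.944) against unmarked and TGCGGC (1.08) against neighbouring peaks. 6-mers there numbered 153 higher and 134 lower.

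With any overlap of 1 bp there were 4365 members. Calls were lost against unmarked peaks for AP-1 (0.898) and AP-1 with RUNX (0.838), and against neighbouring peaks for ETS (0.947), AP-1 (0.870) and RUNX pairs (1.07). Directions turned for STAT (1.10) against unmarked and for TGTGGT (0.956), TGCGGT (1.11), TGCGGC (1.15) and NF-kappaB (1.15) against neighbouring peaks. With protein-coding TSSs AP-1 (0.911) and AP-1 with RUNX (0.834) lost their calls against unmarked peaks and SP1 turned (0.961). At 5000 to 50000 bp from a TSS the calls lost were AP-1 (0.824), ETS with RUNX (1.19) and AP-1 with RUNX (0.773) against unmarked and ETS (0.881) against neighbouring peaks, and directions turned for STAT (1.06) against unmarked and for NF-kappaB (1.11) and introns (1.02) against neighbouring peaks. With GC content and distance in a logistic model, AP-1 (0.841), ETS with RUNX (1.16) and AP-1 with RUNX (0.797) lost theirs against unmarked peaks, where STAT (1.14) and SP1 (0.911) turned. In peaks of 500 to under 750 bp, chosen after seeing the data, RUNX (0.919), AP-1 (0.897), RUNX pairs (0.879) and AP-1 with RUNX (0.863) lost theirs against unmarked peaks, and ETS (0.895), AP-1 (0.808) and RUNX pairs (1.17) against neighbouring peaks, where TGCGGT (1.03) and NF-kappaB (1.06) turned. Counting every coding TSS within 50000 bp gave 4011 genes with a member. Of the values for other motifs and positions, 147 kept their direction and side of the threshold, 27 turned, 38 lost a call in the same direction and 14 gained one. Those gained were, over the whole peak, NF-kappaB (2.23), IRF (0.742) and SP1 (1.75) against unmarked and TGTGGT (1.27) and T-box (1.29) against neighbouring peaks. In the model with GC content they were TGCGGT (0.649) and TGCGGC (0.618) against unmarked and TGTGGT (1.20), TGCGGC (0.703) and SP1 (0.583) against neighbouring peaks. The others were positions between genes with joined intervals (0.824), TGCGGT (0.752) and IRF (0.578) with protein-coding TSSs, and SP1 at 5000 to 50000 bp (1.72).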
